A study of Rattus norvegicus with 21 samples.

Results

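Pomc, Tbx19, Avpr1b, Pax7, Oacyl and Cdk18 mark the corticotrophs and melanotrophs of the pituitary, and their levels were followed lesion by lesion in MENX rats, beside normal glands of wild-type rats. The 6 genes were picked by their symbol in the annotation of the array, each through the probe set that was brightest on average across the 21 arrays. Of the 6, 5 had a probe set, out of 14506 genes named by a single symbol on the array, and Pax7 had none in the annotation used here, so it has no value. Pax7 therefore remained not analysed here, and the melanotroph side of the set rests on Oacyl together with Pomc and Tbx19, which corticotrophs share.

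The series comprises 21 Affymetrix Rat Gene 1.0 ST arrays, 1 per tissue sample, on which 16 lesions were compared with 5 wild-type pituitaries. All rats were labelled with the strain Sprague–Dawley white eye/Wistar–Kyoto, and the labels give no treatment. The rats with lesions were homozygous mutants for p27Kip1 (written Cdknb1 in the labels), a cell cycle inhibitor, were 7 to 12 months old and are described as developing gonadotroph-derived adenomas in the anterior lobe. The controls were wildtype rats of 6 months, so that genotype, tumor and age cannot be told apart. The lesions carried 9 sample numbers, read here as rats and called adenomas 1 to 9, while the paper counts more rats. Its methods also give these rats a narrower and younger age range than the labels, whose ages are used here. Of these, 4 gave 1 lesion, 3 gave 2 and 2 gave 3, and no lesion carried the number 13. The tissue was dissected from the glands, and whether the wild-type samples kept the intermediate and posterior lobes is not stated in the labels or the methods. The labels gave 6 females and 3 males with adenomas, and 2 females and 3 males among the controls. The sample numbers began with 08 in 5 adenoma and 2 wild-type rats and with 09 in the other 4 and 3.

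Corticotrophs of the anterior lobe and melanotrophs of the intermediate lobe both make proopiomelanocortin, the product of Pomc. Prohormone convertases cut this precursor into adrenocorticotropic hormone (ACTH) in corticotrophs and further into melanocyte-stimulating hormone and beta-endorphin in melanotrophs. The T-box factor TBX19 (also called TPIT) switches on Pomc in both lineages, and PAX7 sets the melanotroph apart from the corticotroph. Hypothalamic corticotropin-releasing hormone and vasopressin drive ACTH release, the latter through the V1b receptor encoded by Avpr1b, while dopamine holds melanotrophs in check. In the adult gland these lineages are separate from the gonadotrophs and from the cells that depend on the factor PIT-1.

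The promoters of Pomc and Tbx19 are shown because TBX19 acts on the first and because both genes were lower in every lesion. Avpr1b was lower in every lesion too, and its promoter is not shown. Each is the stretch of 250 bases before the RefSeq start on build GRCr8, and capitals mark the letters of 5 searched motifs. The Pomc stretch lies at chr6:32659103-32659352 on the plus strand and the Tbx19 stretch at chr13:80006344-80006593 on the minus strand.
Pomc: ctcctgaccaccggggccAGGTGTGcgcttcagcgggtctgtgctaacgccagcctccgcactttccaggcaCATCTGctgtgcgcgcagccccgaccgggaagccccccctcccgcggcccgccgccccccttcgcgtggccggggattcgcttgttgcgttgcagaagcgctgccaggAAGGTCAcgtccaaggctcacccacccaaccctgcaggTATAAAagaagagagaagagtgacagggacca
Tbx19: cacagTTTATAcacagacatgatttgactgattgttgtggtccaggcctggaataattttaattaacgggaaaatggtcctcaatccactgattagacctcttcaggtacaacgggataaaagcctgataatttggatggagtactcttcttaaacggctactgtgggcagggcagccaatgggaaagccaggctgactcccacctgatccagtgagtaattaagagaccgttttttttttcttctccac
Positions are counted back from -1, the base before the start. In Pomc the T-box half-site AGGTGTG stood at -232 to -226, the E-box CAGATG read by NEUROD1 on the other strand at -178 to -173, the half-site AAGGTCA read by NR4A1 and by other nuclear receptors at -70 to -64, and a TATA box, TATAAA, at -32 to -27. These matches did not overlap. On either strand, 4.8% of the 33469 RefSeq promoters of the same length held the T-box half-site, 3.99% the NR4A half-site, 14.0% the E-box and 12.9% the TATA letters. The Tbx19 stretch held only TATAAA on the other strand, at -245 to -240. The site TAATCC of PITX factors, found in 6.34% of promoters, was in neither stretch but stood at -178 to -173 before Avpr1b. Such matches describe letters and show no binding, and bases farther upstream were not searched.

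Pomc, Tbx19, Avpr1b and Oacyl were lower in the adenomas, and Cdk18 was higher. The falls ran from 13.4-fold for Pomc to 1.71-fold for Avpr1b, and Cdk18 rose 1.54-fold. Lesions of 1 rat were averaged, and the resulting 9 adenoma values were compared with the 5 wild-type values by limma's moderated test, adjusted over all 29214 probe sets by Benjamini-Hochberg. With an adjusted p under 0.05 as the threshold, 9.06% of all probe sets were called lower and 8.49% higher (17.5% in either direction), against 4 and 1 of the 5 measured genes. For Pomc, Tbx19 and Avpr1b the 2 groups did not overlap, with each adenoma value under the lowest wild-type one, which held for 2.16% of all probe sets. Values are given on the log2 scale throughout, and each tells of a whole tissue piece, in which fewer cells of a type and less RNA per cell cannot be told apart.

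**Figure D1:**
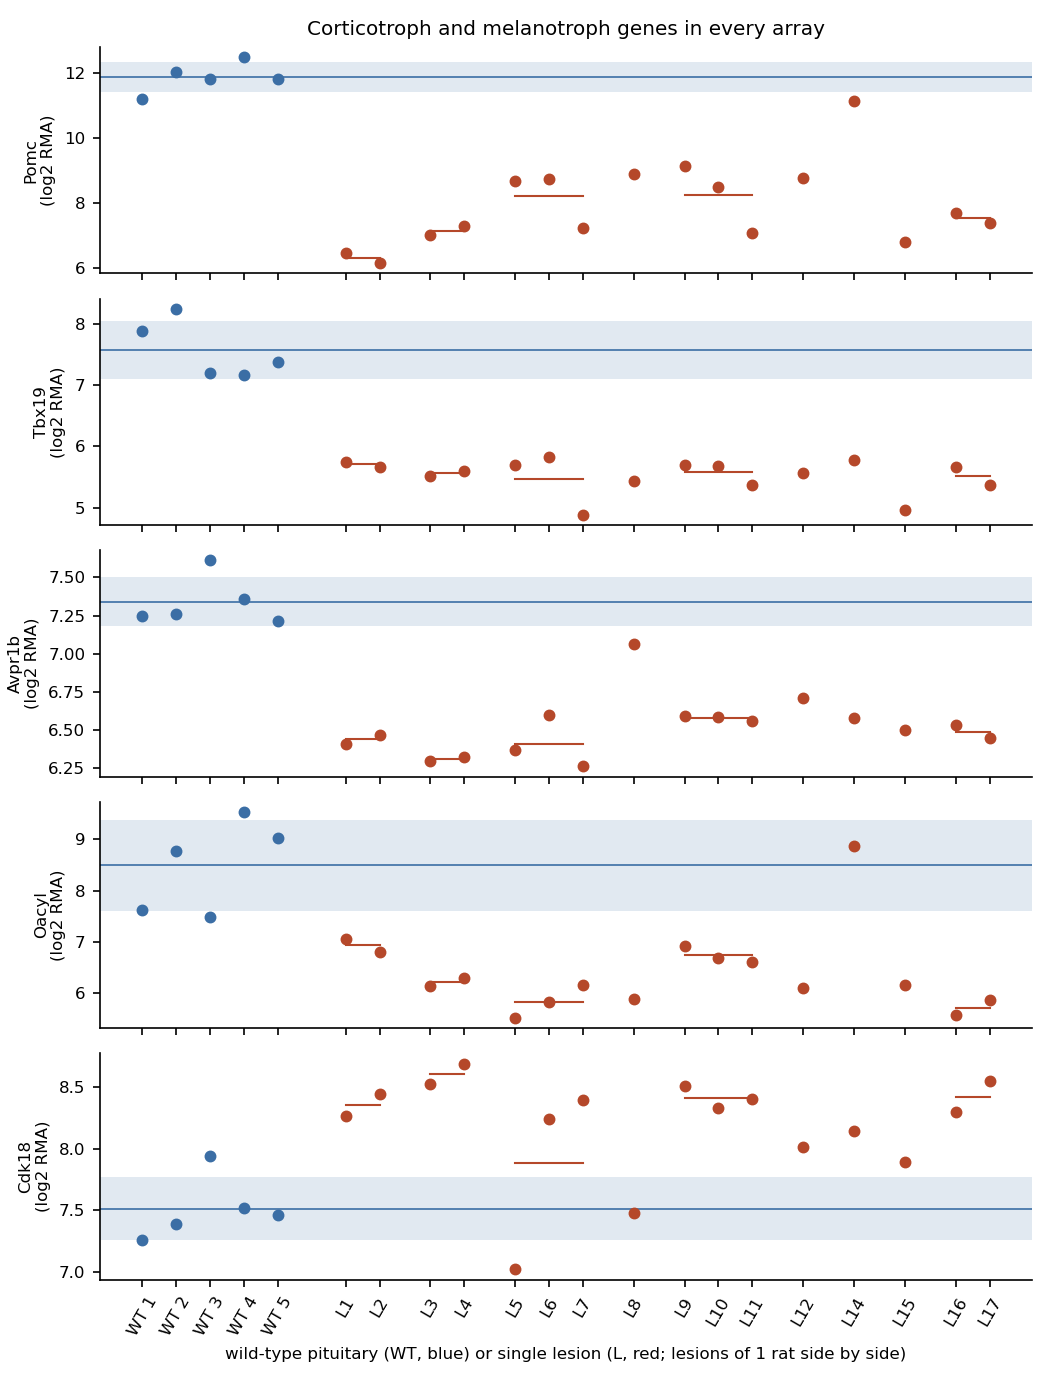
Log2 RMA values (y axes) of the 5 measured genes in each of 5 wild-type pituitaries (blue points) and 16 lesions (red points, lesions of 1 rat side by side, red lines at the rat's mean). The blue line and band are the wild-type mean and SD. All lesions lie below all wild-type points for Pomc, Tbx19 and Avpr1b, lesion 14 reaches the wild-type range for Oacyl, and 13 of 16 lesions lie above all wild-type points for Cdk18.

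Pomc, the hormone precursor gene, was at 11.21, 12.04, 11.81, 12.48 and 11.80 in wild-type pituitaries 1 to 5. In the lesions it ran from 6.16 to 11.15. Even the highest lesion therefore stayed below the lowest wild-type pituitary, but only by a narrow margin. The group means were 11.87 ± 0.46 (SD, n = 5) and 8.12 ± 1.44 (SD, n = 9 rats), a log2 difference of -3.75 (standard error 0.60, adjusted p = 0.000857 from limma).
The lesions fell into a wide range. Lesions 1 and 2 of adenoma 1 were lowest at 6.47 and 6.16, and adenoma 2 had 7.02 and 7.28. Adenoma 3 had 8.67, 8.76 and 7.25, and adenoma 5 had 9.13, 8.48 and 7.09, so that 1 lesion of each of these rats stood well under its partners. The single lesions of adenomas 4, 6, 7 and 8 were at 8.89, 8.79, 11.15 and 6.80, and the pair of adenoma 9 was at 7.71 and 7.40. Against the wild-type mean, Pomc was thus 52.4-fold lower in lesion 2 and 1.65-fold lower in lesion 14.

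Tbx19, which encodes the lineage factor that switches on Pomc, was at 7.88, 8.24, 7.20, 7.17 and 7.37 in the wild-type pituitaries. The 16 lesions lay between 4.89 and 5.83, with a clear gap to the lowest wild-type value. The means were 7.57 ± 0.47 (SD, n = 5) and 5.51 ± 0.23 (SD, n = 9 rats), and the log2 difference was -2.07 (standard error 0.17, adjusted p = 7.12e-06 from limma), 4.19-fold lower.
Lesion 7 of adenoma 3 (4.89) and the lesion of adenoma 8 (4.96) were lowest. The other 14 lesions stayed between 5.37 and 5.83, below the median of every array, which was at least 6.36. The SD over rats was 0.23 for Tbx19 (0.114 without adenoma 8) and 1.44 for Pomc (0.941 without adenoma 7). RMA understates differences of dim probe sets, so the 2 spreads cannot be compared as levels of the genes.

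Avpr1b, encoding the vasopressin V1b receptor of corticotrophs, had wild-type values of 7.25, 7.26, 7.61, 7.36 and 7.22. Its lesions ran from 6.26 to 7.06, all below the wild-type pituitaries. The means were 7.34 ± 0.16 (SD, n = 5) and 6.56 ± 0.22 (SD, n = 9 rats), a log2 difference of -0.78 (standard error 0.11, adjusted p = 0.000421 from limma).
The lesion of adenoma 4, the youngest rat with a lesion, was the highest at 7.06, and the next was that of adenoma 6 at 6.71. Lesions of the same rat were close together: 6.41 and 6.47 in adenoma 1, 6.29 and 6.32 in adenoma 2, and 6.59, 6.59 and 6.56 in adenoma 5. Adenoma 3 had a wider range, 6.37, 6.59 and 6.26.

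Oacyl, an O-acyltransferase-like gene that marks melanotrophs, varied widely among the wild-type pituitaries, at 7.63, 8.78, 7.48, 9.53 and 9.03. In the lesions it ran from 5.53 to 8.87, and 15 of 16 lesions lay below all wild-type values. The means were 8.49 ± 0.90 (SD, n = 5) and 6.50 ± 0.97 (SD, n = 9 rats), a log2 difference of -1.99 (standard error 0.47, adjusted p = 0.00994 from limma), 3.97-fold lower.
The exception was lesion 14 of adenoma 7, whose 8.87 was above 3 of the 5 wild-type pituitaries. Adenoma 1 had the next values, 7.06 and 6.81, followed by adenoma 5 with 6.92, 6.69 and 6.61. The remaining lesions were between 5.53 and 6.29, with the lowest value in lesion 5.

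Cdk18, encoding a kinase of the PCTAIRE family, moved the other way. It was at 7.26, 7.39, 7.94, 7.52 and 7.46 in the wild-type pituitaries and between 7.02 and 8.69 in the lesions. The means were 7.51 ± 0.26 (SD, n = 5) and 8.14 ± 0.35 (SD, n = 9 rats), a log2 difference of 0.62 (standard error 0.17, adjusted p = 0.0194 from limma).
Of the 9 adenoma values 6 lay above all wild-type values. How many probe sets reach 6 of 9 was not counted. The stricter case, all 9 above, which Cdk18 did not meet, held for 2.66% of all probe sets. Lesion 5 (7.02) was below every wild-type pituitary although its partners from adenoma 3 were at 8.24 and 8.39, and the lesion of adenoma 4 (7.48) lay within the wild-type range. Adenoma 2 had the highest pair, 8.53 and 8.69. The call of Cdk18 was the least firm of the 5: it was lost with the first lesion of each rat alone (log2 difference 0.50, adjusted p = 0.139 from limma), and within number prefix 08 or 09 alone (0.83 with adjusted p = 0.171 and 0.48 with adjusted p = 0.0901 from limma).

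In the order of the 14 rats, most steps between neighbours were smaller than the spread of lesions within rats. That spread comes from rats with lesions only and is not the error of a difference between rats. It therefore does not decide which neighbours differ. The yardstick was the pooled SD of lesions within the 5 rats that gave more than 1 lesion: 0.731 for Pomc, 0.301 for Tbx19, 0.096 for Avpr1b, 0.22 for Oacyl and 0.416 for Cdk18. Of the 13 steps between neighbours, 1 was larger than this SD for Pomc, 4 for Tbx19, 6 for Avpr1b, 4 for Oacyl and 0 for Cdk18. The 1 step of Pomc lay between adenoma 4 and adenoma 7 (2.25), so no step from adenoma 7 up through the wild-type pituitaries was larger than this SD. The lowest wild-type value and the highest adenoma value were 1.4 apart for Tbx19 and 0.15 apart for Avpr1b. The SD over rats was above the pooled SD within rats for Pomc, Avpr1b and Oacyl (1.44, 0.22 and 0.97) and below it for Tbx19 and Cdk18 (0.23 and 0.35). For Tbx19 and Cdk18 the pooled SD rested largely on adenoma 3, and it was not computed without that rat. Single rats set much of this spread: without adenoma 7 the SD over rats was 0.941 for Pomc and 0.429 for Oacyl, without adenoma 4 it was 0.122 for Avpr1b, and without adenoma 8 it was 0.114 for Tbx19. This was given as a description, with no test. In adenoma 3 the 3 lesions spanned 1.51 for Pomc, 0.94 for Tbx19, 0.64 for Oacyl and 1.37 for Cdk18, the widest range within a rat for the last 3 genes. The other rats with more than 1 lesion had ranges of 0.08 to 0.32 for Tbx19 and 0.17 to 0.25 for Cdk18.

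Lesion 14, the only lesion of adenoma 7, was singled out after its values were seen. Its Pomc value was 3.26 above the median of the other 8 adenoma values, the second largest such excess of all 29214 probe sets, and its Oacyl value was 2.72 above, the fifth largest. Trpa1, encoding an ion channel, was first with 3.39, and Spink4 and the pigment enzyme gene Tyrp1 were 2.92 and 2.70 above. The other lineage genes of this lesion did not stand out. Tbx19 was 0.23 above the median of the others (rank 3201), Avpr1b 0.08 above (rank 8003), and Cdk18 differed by -0.04 (rank 16321). Tbx19 lay below all array medians in every lesion, and RMA understates differences of dim probe sets. Outside the set, Pcsk2, a convertase gene of melanotrophs that was not called in the adenomas, was 0.20 above (rank 3908). The dopamine receptor gene Drd2 differed by -0.04. Tshb, encoding a subunit of thyrotropin, differed by -3.39, the lowest rank on the array, and Gh1 by -1.49. Lesion 14 thus had Pomc just under and Oacyl within the wild-type range, and Tbx19 and Avpr1b among the values of the other lesions. Without adenoma 7 the log2 difference was -4.12 for Pomc and -2.28 for Oacyl. Over the 8 genes of the posterior lobe list the mean of lesion 14 was 6.40, within the adenoma range of 6.13 to 6.46 and under the wild-type range of 6.71 to 6.83. For the other marker lists, lesion 14 had the lowest adenoma mean for gonadotroph (9.17), PIT-1 lineage (8.59) and red blood cell genes (7.26), and lay within the adenoma range for folliculostellate (7.17) and macrophage genes (7.70). Whether tissue of another lobe or other cell types had a part in these values was not tested.

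**Figure D2:**
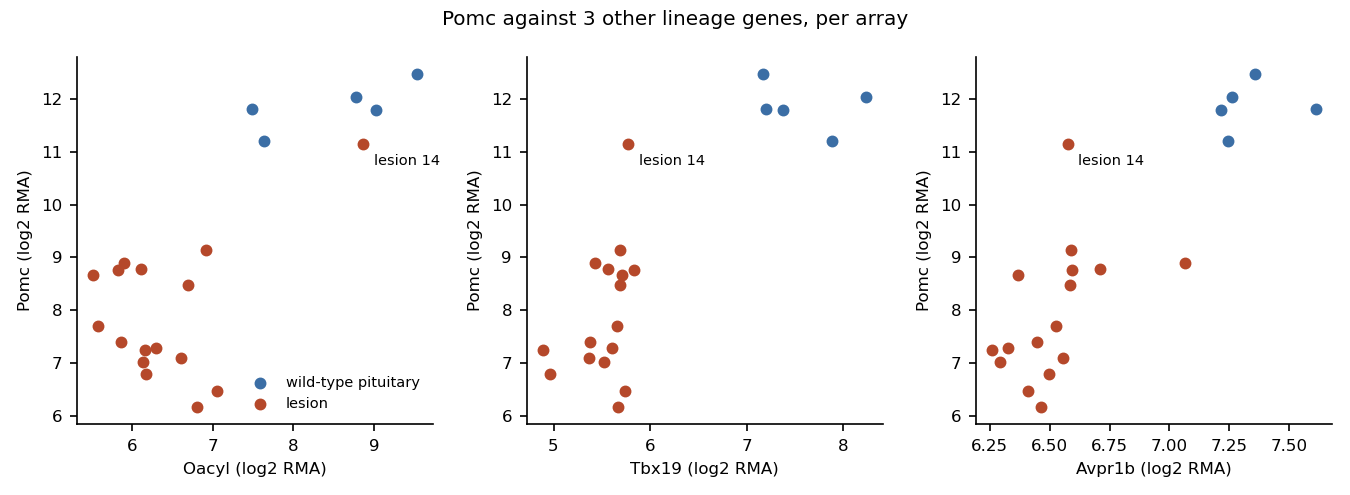
Pomc (y axes) against Oacyl, Tbx19 and Avpr1b (x axes), all as log2 RMA values, with 1 point per wild-type pituitary (blue) or lesion (red). Lesion 14 (Pomc 11.15, Oacyl 8.87) lies beside the wild-type points in the first panel and at the Tbx19 (5.77) and Avpr1b (6.58) levels of the other lesions in the other panels.

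Relations among the genes were examined over the 9 adenoma values, for the 10 pairs of measured genes and for each gene against Pou1f1, which encodes PIT-1, 15 relations in all with exact two-sided permutation tests. None passed Benjamini-Hochberg adjustment at 0.05. The smallest p was that of Avpr1b and Pou1f1 (Pearson r = 0.782, exact permutation p = 0.00578, adjusted 0.0867; Spearman rho = 0.783, exact permutation p = 0.0172, adjusted 0.189), and r was 0.409 without adenomas 4 and 6. By the p of Pearson r, negative relations of Cdk18 came next. With Avpr1b it had r = -0.736 (exact permutation p = 0.0235, adjusted 0.176), and -0.241 without adenomas 4 and 6. With Pou1f1 it had r = -0.699 (exact permutation p = 0.0365, adjusted 0.182), and -0.374 without adenomas 4 and 2. Pomc and Oacyl had r = 0.605 (exact permutation p = 0.107, adjusted 0.401) and rho = 0.0 (exact permutation p = 1.0, adjusted 1.0), and without adenomas 7 and 1 r was -0.059, so the relation rested on those rats. Pomc and Tbx19 had r = 0.411 (exact permutation p = 0.235, adjusted 0.469) and rho = 0.2 (exact permutation p = 0.613, adjusted 0.848), with r = 0.541 without adenomas 7 and 1. Other relations were larger with 2 rats left out, which was not tested: r went from 0.281 to 0.871 for Pomc and Pou1f1 and from 0.44 to 0.724 for Pomc and Avpr1b without adenomas 7 and 1. For Tbx19 and Oacyl (rho = 0.733, exact permutation p = 0.0311, adjusted 0.189) r went from 0.518 to 0.852 without adenomas 8 and 7.

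Of 13 measured genes of Pomc transcription, 4 were higher, none was lower and 9 were not called, with a median log2 difference of -0.05 beside -0.03 over all probe sets, of which 9.06% were called lower and 8.49% higher. Neurod1, a bHLH factor that acts with PITX1 on the Pomc promoter in corticotrophs, was at 6.41, 6.96, 6.89, 6.22 and 6.11 in the wild-type pituitaries and at 8.57 or higher in all 16 lesions. It rose 10.2-fold (adjusted p = 7.5e-06 from limma), and its groups did not overlap, which held in this direction for 2.66% of all probe sets. Isl1, a LIM homeobox factor, rose 1.95-fold, and Smarca4, a chromatin remodeler, and Stat3, which mediates cytokine signals to Pomc, rose 1.45-fold and 1.44-fold. Pitx1, the homeobox partner of TBX19, had a log2 difference of 0.14 (adjusted p = 0.229 from limma). Nr4a1, an immediate early nuclear receptor, and Nr3c1, the glucocorticoid receptor of the negative feedback on Pomc, had -0.26 and -0.32 (adjusted p = 0.751 and 0.43 from limma). Without wild-type pituitary 1, and also with the 16 lesions entered singly (with the rat as a random block, as independent samples or in the methods' t-test), 3 of the 13 were called lower, the immediate early genes Fos, Nr4a2 and Nr4a3, named after their values were seen.

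Of 13 measured genes of receptors and signals that reach these cells, 2 were lower and 1 was higher (median -0.13), beside the same 9.06% and 8.49% of all probe sets. With the 16 lesions entered singly 4 were lower, with Drd2 and Gnas added, and with the first lesion of each rat or with quantile normalization none was higher. Sstr5, a somatostatin receptor of corticotrophs, fell by 0.51 (adjusted p = 0.00304 from limma). Its groups did not overlap over rats, which held in this direction for 2.16% of all probe sets. Of its 16 single lesions 15 lay below all wild-type pituitaries. Il6st, the shared subunit of leukemia inhibitory factor and interleukin-6 receptors, fell by 0.46, and Prkar1a, a regulatory subunit of protein kinase A, was 0.37 higher. Drd2, the dopamine receptor that restrains melanotrophs and lactotrophs, had a log2 difference of -0.88 and missed the threshold (adjusted p = 0.0609 from limma), and 7 of 9 adenoma values lay under the lowest wild-type one. Crhr1, the receptor of corticotropin-releasing hormone, was unnamed in the annotation used here.

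The counts in this paragraph stand beside 9.06% of all probe sets called lower and 8.49% called higher. Of 10 measured genes that process or store prohormones, none was called in either direction (median 0.11), but 1 was called higher without wild-type pituitary 1, the granin gene Scg3. Pcsk2, which cuts ACTH further in melanotrophs, was at 9.36 ± 0.44 (SD, n = 5) and 9.86 ± 0.40 (SD, n = 9), a log2 difference of 0.50 (adjusted p = 0.115 from limma), while Pcsk1 was unnamed here. Among 11 receptors and partners of POMC peptides only Mrap2, a partner of melanocortin receptors, was called, falling by 0.65 (adjusted p = 0.0312 from limma); that call was lost without wild-type pituitary 1, without adenoma 7 and with either of 2 other scalings of the arrays. Among 5 genes of the vasopressin and oxytocin family Oxt fell by 0.33, and 2 of the 5 were lower without wild-type pituitary 1. A single call in lists this small says nothing about these families as a whole. Of the 3 measured PCTAIRE and related kinases beside Cdk18, Cdk14 rose 2.52-fold (adjusted p = 0.0117 from limma), Cdk17 fell by 0.46 (adjusted p = 0.00879 from limma) and Cdk16 had a log2 difference of 0.17 (adjusted p = 0.154 from limma).

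**Figure D3:**
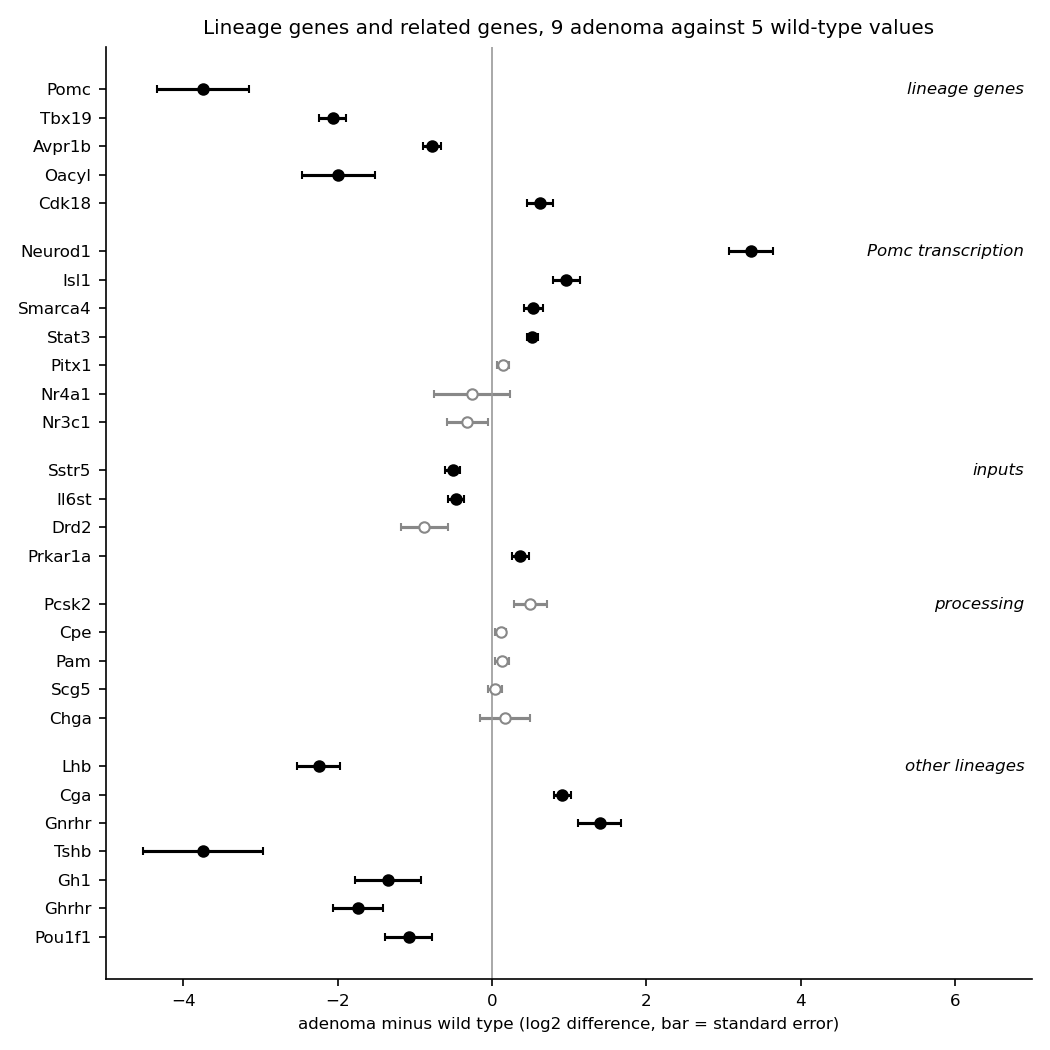
Log2 difference of adenoma minus wild type (x axis, bars are standard errors, 9 against 5 rat values) for the 5 measured lineage genes, genes of Pomc transcription, inputs and prohormone processing, and marker genes of other lineages (y axis). Filled points have an adjusted p under 0.05 from limma. Pomc (-3.75) and Neurod1 (3.36) lie at opposite ends among the genes tied to Pomc, and none of the 5 processing genes shown is filled, with Pcsk2 at 0.50.

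Markers of other cells moved in the same comparison, and their part in the results above was not tested. Over all probe sets 9.06% were called lower and 8.49% higher. Of 7 genes of the PIT-1 lineages, 5 were lower (median -1.08), among them Tshb (13.5-fold), Ghrhr (3.33-fold), Gh1 (2.55-fold) and Pou1f1 (2.11-fold), and the mean over the list ran from 8.59 to 9.91 in the adenomas against 10.28 to 10.65 in wild-type pituitaries. The 2 genes not called, Prl and Trhr, had log2 differences of 0.08 and 0.53 (adjusted p = 0.434 and 0.228 from limma). Prl had a wild-type mean of 13.69, near the top of the range of the arrays. Without wild-type pituitary 1, and also with arrays centred on their medians or quantile normalized again, 3 of the 7 were lower. Of 5 gonadotroph genes, Fshb and Lhb were 5.20-fold and 4.74-fold lower and Gnrhr and Cga 2.63-fold and 1.89-fold higher, with list means of 9.17 to 10.14 in adenomas and 9.46 to 10.86 in wild-type pituitaries. Of 8 genes of the posterior lobe, which joins the intermediate lobe, 4 were lower, led by the glial transporter genes Slc1a2 (2.77-fold) and Slc1a3 (1.99-fold), and the list means of 6.13 to 6.46 did not reach the wild-type range of 6.71 to 6.83. Gfap, Rax and Nkx2-1 of that list had wild-type means of 5.46, 6.12 and 6.72, near or below the array medians. Of 5 folliculostellate and stem cell genes, 3 were lower, and Aldh1a1 fell by 1.70 (list means 6.51 to 7.21 against 7.26 to 7.99). Of 6 macrophage genes, 5 were higher, and Cd163 rose 2.76-fold (6.85 to 8.09 against 6.23 to 6.75). Of the 2 measured red blood cell genes, Hbb and Alas2, none was called (7.26 to 9.49 against 8.11 to 9.39).

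**Figure D4:**
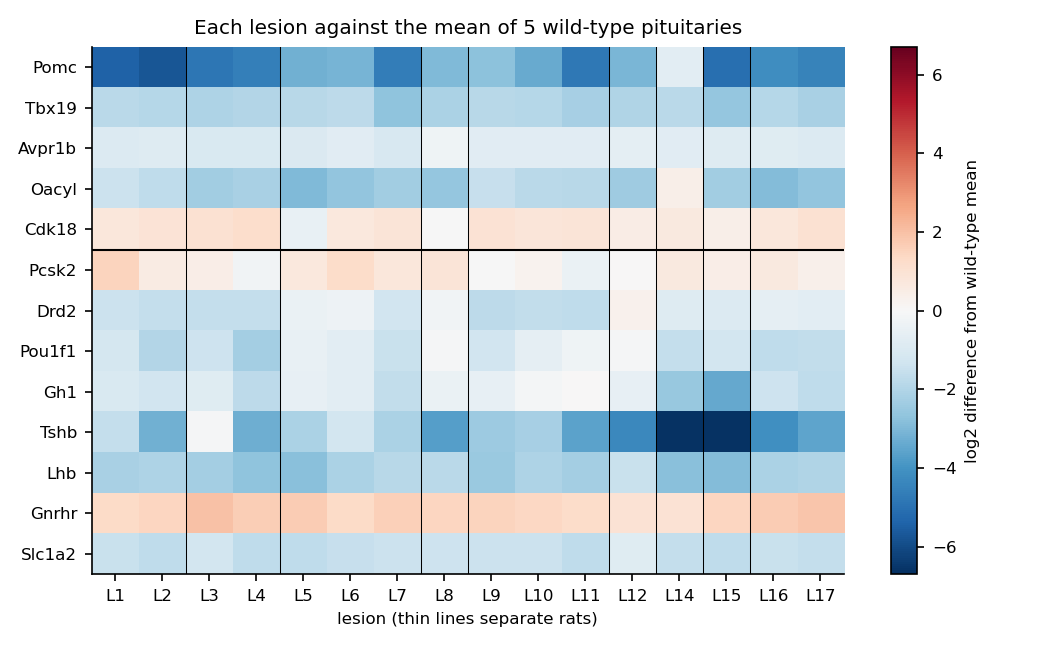
Log2 difference of each of 16 lesions (x axis, thin lines separate rats) from the mean of the 5 wild-type pituitaries, for the 5 lineage genes above the thick line and 8 genes of other roles below it (y axis); blue is lower and red is higher. Pomc is the deepest blue of the lineage genes except in lesion 14 (-0.72), Tbx19 is lower in all lesions, and Tshb is lowest in lesions 14 and 15 (-6.60 and -6.64).

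The number prefix of the labels was treated as a possible batch. Pomc and Tbx19 were lower within each prefix. Pomc differed by -3.86 and -3.46 with 08 and 09 (adjusted p = 0.0303 and 0.0349 from limma) and Tbx19 by -2.51 and -1.79 (adjusted p = 0.000468 and 0.00271 from limma). The wild-type values of Tbx19 did not overlap between the prefixes, with 7.88 and 8.24 for 08 and 7.17 to 7.37 for 09. Those of Cdk18 did not overlap either, in the other direction, with 7.26 and 7.39 for 08 and 7.46 to 7.94 for 09. For Pomc, Avpr1b and Oacyl they overlapped. How many probe sets split in this way was not counted, and 2 against 3 values are too few to show a difference between the prefixes. Avpr1b differed by -0.69 with 08 (adjusted p = 0.104 from limma) and -0.83 with 09 (adjusted p = 0.00778 from limma). Oacyl differed by -1.88 and -1.96, past the threshold in neither prefix (adjusted p = 0.0513 and 0.125 from limma).

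Sex and age within the groups gave no call for these genes. The difference between adenoma and wild type was -3.26 in females and -4.24 in males for Pomc (interaction 0.98, adjusted p = 0.894 from limma), -2.14 and -2.0 for Tbx19, -0.60 and -0.98 for Avpr1b, -1.71 and -2.33 for Oacyl, and 0.69 and 0.69 for Cdk18 (adjusted p of the interactions 0.801 to 1.0). Over all probe sets limma called 0% for this interaction, and 1981 had an unadjusted p under 0.05. Among the 9 adenoma values the slope per month of age was largest against its error for Avpr1b, -0.08 with a standard error of 0.03 (adjusted p = 0.398 from limma), in a test that called 0.00342% of all probe sets and gave 3434 of them an unadjusted p under 0.05.

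The genes whose pattern was most like that of each member were named by Pearson r over genes with a single symbol, as a description in which the points share the group difference and the array. Over the 14 rats the closest to Pomc was Mfap4 (r = 0.94), followed by Gli3 and Pde1b. Mfap4 was also the closest over the 9 adenoma values (r = 0.957), with Havcr2 and Bves next. For Tbx19 they were Caps2 (0.957), Gstm5 and Maob over the 14 rats, and Erich1 (0.948), Tpm1 and Matn1 over the adenomas. For Avpr1b they were Ripor2 (0.958), Rai2 and Veph1, and Mucl3 (0.973), Ggnbp1 and Car4. For Oacyl they were Ptgds (0.897), Cacna1f and Dpep2, and Nptxr (0.96), Krt90 and Rfx6. For Cdk18 they were Sorbs3 (0.956), Abca3 and Tkt, and again Sorbs3 (0.97), with U2af1 and Thoc6. None of the 5 lineage genes was among the 3 closest genes of another. Adenoma 7 set much of the adenoma spread of Pomc and Oacyl (SD over rats 1.44 and 0.97, without it 0.941 and 0.429), and r was not recomputed without it. Some of the closest genes were dim, such as Havcr2 (means of 4.86 in wild type and 4.72 in adenomas) and Rfx6 (4.31 and 4.39), below the array medians.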

How the data were processed

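RNA of 16 lesions and 5 wild-type pituitaries was hybridised to Affymetrix arrays (Rat Gene 1.0 ST). The authors deposited log2 values per gene-level probe set, made in Affymetrix Expression Console by RMA (background correction, quantile normalization and summary by median polish). They ran from 2.01 to 14.09 with array medians of 6.36 to 6.53. RMA understates folds of dim and of saturated probe sets, and the number of arrays limits precision. Of 29214 probe sets, 15310 carry 1 symbol in the platform annotation, 323 several and 13581 none.

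Lesions were averaged within each sample number, read as a rat. limma 3.58.1 in R 4.3.3 fitted the group as the only term (12 residual and 3.212 prior degrees of freedom), with Benjamini-Hochberg adjustment over all probe sets, and was tested on simulated data. Sex was tested as an interaction and age as a slope. Each gene was represented by its probe set with the highest mean. The members and lists were chosen with earlier results of these data known. The text names all members, the called genes of each list (up to 4 by size), Pcsk1, Pcsk2, Crhr1, Drd2, Nr3c1, Neurod1, Pitx1 and Nr4a1, and the 3 most similar genes per member. Prl and Trhr were added after their values were seen. The labels do not say beyond the numbers that samples came from separate animals, so p-values measure the spread between these samples. Promoters were taken from RefSeq (GRCr8), which held all 6 members. The array's build was not needed. With Pax7 without a value, 15 relations were tested. Alternatives were lesions as separate samples, first lesions, prefix, sex and replicate blocks, a filter on dim probe sets, other scalings, the methods' t-test and each rat left out.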

Additional observations from a re-analysis of the deposited data

Results flagged for a closer look

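Of the genes named, 39 were screened in the 9 adenoma and the 5 wild-type values for a sample far from the others, which chance finds in about 5% of groups. Among the lineage genes, Tbx19 in adenoma 8 was at 4.96, with the next adenoma value at 5.43, and Oacyl in adenoma 7 was at 8.87, with the next at 6.93. Among adenoma values of other genes, Sstr5 in adenoma 9 was at 6.21 (next 6.52), Ghrhr in adenoma 5 at 8.00 (next 6.33), Slc1a2 in adenoma 6 at 6.37 (next 5.81) and Aqp4 in adenoma 8 at 5.66 (next 6.12). Among wild-type values, Sox2 in wild-type pituitary 2 was at 7.97 (next 7.52) and Cd163 in wild-type pituitary 3 at 5.25 (next 5.59). The Nr4a1 difference had opposite signs in the sexes, every female adenoma value lying above and every male one below the mean of the wild-type pituitaries of that sex, and the interaction was 2.73 with an adjusted p of 0.197 from limma, so this difference failed the correction.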

How the results depend on the processing

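No alternative turned the direction of a measured lineage gene. Tbx19 kept its call in all 15 alternative settings (log2 difference -2.51 to -1.79). In females alone the calls of Pomc (-3.26, adjusted p = 0.189 from limma), Avpr1b (-0.60, 0.134), Oacyl (-1.71, 0.3) and Cdk18 (0.69, 0.189) were lost, and in males alone that of Cdk18 (0.69, 0.0987). With prefix 08 alone Avpr1b (-0.69), Oacyl (-1.88) and Cdk18 (0.83) lost theirs, with prefix 09 alone Oacyl (-1.96) and Cdk18 (0.48), and with the first lesion of each rat Cdk18 (0.50). These settings hold fewer arrays, and with prefix 08 alone 345 probe sets were called lower and 363 higher, in females 50 and 144, in males 1400 and 1200, against 2648 and 2479 in the full comparison. With 16 lesions as independent samples the totals were 4142 and 3562, by the methods' t-test 4014 and 3404, without wild-type pituitary 4 1649 and 1573, and without wild-type pituitary 1 3780 lower. The replicate block uses only the lesions labelled 1 to 5, the only ones whose number a wild-type sample also carries. These lesions came from adenomas 1 to 3 alone, all with prefix 08, and lesions of the same rat were entered as separate values. They include both lesions of adenoma 1, the lowest rat for Pomc. Same-numbered deviations correlated between 0.013 and 0.217, and differently numbered ones between -0.262 and 0.227. So few values cannot decide whether the numbers pair the samples, and the labels state no pairing. With the replicate block Pomc was at -4.75 and Cdk18 lost its call (0.67, adjusted p = 0.0844 from limma), and 2291 probe sets were lower and 2453 higher. With each rat left out in turn every call of the 5 genes was kept, with Pomc from -4.12 to -3.52, Tbx19 from -2.17 to -1.90, Avpr1b from -0.84 to -0.71, Oacyl from -2.28 to -1.73 and Cdk18 from 0.56 to 0.73. Of 288 list counts, 242 stayed within 1.5 times and 46 moved. The counts that stayed include many lists with no called gene before and after, so they overstate how firm the other counts are. A second probe set per gene was not run, since each member has 1.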
